A study of Mus musculus with 5 samples.

Results

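The sites described here are places in the genome where the summits of Hoxa9 and C/EBPα binding coincided in mouse bone marrow progenitors. They were chosen by measured positions: a Hoxa9 peak was taken if its summit lay within 100 bp of a C/EBPα summit and if it shared 1 bp or more with no H3K27me3 region. Of 6578 Hoxa9 peaks, 2265 met the rule, or 34.4%. Each of the 2265 sites had a C/EBPα peak of its own, so they held 8.56% of the 26446 C/EBPα peaks. A further 29 Hoxa9 peaks had summits as close and were left out because they touched H3K27me3. The Hoxa9 peaks most like the sites were 1438 that touched a C/EBPα peak with summits over 100 bp apart, called summit-apart peaks here, and 2777 with no C/EBPα peak, called Hoxa9-only peaks. Both of these classes were also free of H3K27me3.

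All libraries came from lineage-depleted bone marrow of C57B6 mice that carried MIGR1-HA-Hoxa9 and MIGR1-Flag-Meis1 retroviruses and grew with IL3. Chromatin immunoprecipitation and sequencing (ChIP-seq) was run with anti-HA, anti-C/EBPα, anti-H3K4me1 and anti-H3K27me3, 1 library each. An input library of the series was left aside. Anti-HA sees the retroviral, tagged Hoxa9 and not the cell's own protein. With 1 library per antibody no value below has a replicate error, and no test between conditions was possible.

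Hoxa9 is a homeodomain transcription factor that keeps blood progenitors dividing, and Meis1 is a homeodomain partner that binds DNA beside it. C/EBPα is a basic leucine zipper factor that drives progenitors into the myeloid lineage and binds DNA as a dimer. Both act largely at enhancers, stretches of DNA away from promoters whose flanking nucleosomes carry monomethylation of histone H3 at lysine 4 (H3K4me1). At an occupied enhancer the bound DNA itself is often short of nucleosomes, so that the mark stands to either side of it. H3K27me3 is the mark of Polycomb repression. The study asked where Hoxa9 and C/EBPα occupy the same places in transformed cells. Sites are named by mm9 coordinates, since no genome or gene map of that build was used here.

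The sites had higher median enrichments than the other peaks of both lists, over a wide range. Tags are the reads counted in a peak, and the fewest in any called peak were 17 for Hoxa9 and 15 for C/EBPα. Hoxa9 tags at the sites had a median of 39, with 25 to 62 spanning the middle 50% and 1346 the most. C/EBPα tags had a median of 66, with a middle range of 35 to 117. The 2 counts come from libraries of unknown depth and cannot be set against each other as amounts of protein. Within the Hoxa9 list the sites' median of 39 tags compared with 39 in summit-apart peaks, 24 in Hoxa9-only peaks and 32 over all Hoxa9 peaks. Median fold enrichment, the caller's linear ratio over background, was 7.02 at the sites, 6.43 in summit-apart peaks and 5.58 in Hoxa9-only peaks. On the C/EBPα side the peaks at the sites had a median fold enrichment of 12.35, against 10.705 at summit-apart peaks and 7.41 in the 24181 C/EBPα peaks that held no site. Since the rule required a call in both lists, these medians describe the choice and were not tested.

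Sites were found through the whole range of each list and were commoner at its top. With the Hoxa9 list cut into 5 equal groups by the caller's p score, 20.5% of the weakest group were sites, followed by 25.99%, 36.8%, 40.4% and 48.4% of the strongest. With the C/EBPα list cut in the same way the shares were 3.21%, 4.08%, 6.67%, 9.74% and 19.1%. The strongest group of C/EBPα peaks held 44.6% of all sites, and the weakest held 7.51%. By chromosome the sites made up between 30.02% of Hoxa9 peaks on chromosome 5 and 38.3% on chromosome 19. Chromosome X had 41 sites among 131 Hoxa9 peaks, or 31.3%, inside that range.

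A small set of sites stood apart from the rest. At 5 sites the peaks of both factors held 0.5 or more tags per bp, while the median was 0.0535 for Hoxa9 and 0.0787 for C/EBPα. The most extreme, on chromosome 9 from 35112541 to 35113428, had 1346 Hoxa9 tags and 1346 C/EBPα tags, and the H3K4me1 region there had 1338 tags. Its fold enrichment was 2.65 for both factors and 1.92 for H3K4me1. The others lay on chromosome 12 from 3109768 to 3110440 (805 Hoxa9 and 809 C/EBPα tags), chromosome X from 166526871 to 166527605 (896 and 805), chromosome 6 from 103598885 to 103599387 (673 and 660) and chromosome 4 from 70039056 to 70039575 (347 and 355). Their fold enrichments ran from 1.78 to 3.87 for the 2 factors. In the same order, the H3K4me1 regions at these other sites had 749, 619, 529 and 307 tags. The fold enrichments of those regions ran from 1.38 to 2.91. The 5 sites thus joined some of the highest counts of the set to low enrichments. Counts were nearly equal for the 2 factors, and H3K4me1 counts ran from 307 to 1338. They are called pile-up sites below, and values that rest on them are given with and without them.

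The tags of Hoxa9 and C/EBPα at a site were only loosely related. Spearman's rank correlation between the 2 counts was 0.188 over 2265 sites, and 0.182 over the 2260 sites that were not pile-ups. Sites are not replicates, and the 2 counts at a site come from the same cells and pass the same kind of call, so the correlation is a description. Counts followed width closely within each list (rank correlation 0.957 for Hoxa9 and 0.931 for C/EBPα), which ties tags to how far a peak extends. The rank correlation was 0.165 for tags per bp, 0.154 for p score and 0.130 for fold enrichment. With both widths held fixed it was 0.202 over all sites and 0.107 without the 5 pile-up sites, so that value rested on them. Summit-apart peaks had a rank correlation of 0.176 between Hoxa9 tags and the tags of the nearest C/EBPα peak. There it was 0.138 for tags per bp, 0.142 for p score and 0.0792 for fold enrichment. With both widths held fixed it was 0.0234 in summit-apart peaks. The differences from the sites were not tested. Within chromosomes the rank correlation was above 0 on all 20, from 0.00205 on chromosome 19 to 0.401 on chromosome 18, with a median of 0.174.

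**Figure D1:**
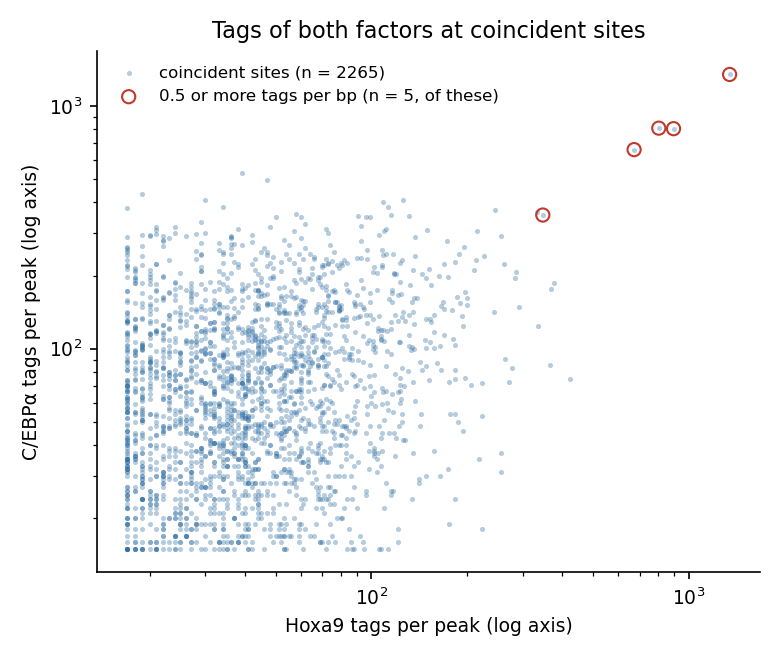
Hoxa9 tags (horizontal, log axis) against C/EBPα tags (vertical, log axis) in the peaks of the 2265 sites, 1 point per site, with the 5 pile-up sites circled. The cloud is broad, with a rank correlation of 0.188, and the circled sites lie far out along the line of equal counts.

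Sites in matching groups of the 2 factors were commonest at the ends of the ranges. A weak relation spread evenly over the ranges also fills the end groups most, so the shares below do not place the link there. With the sites in 4 equal groups by each factor's tags, 36.7% of the 566 sites with most Hoxa9 tags were also in the top group for C/EBPα (95% exact interval 32.8 to 40.9), and 16.4% were in its lowest group (13.5 to 19.7). Among the 567 sites with fewest Hoxa9 tags, 33.0% were in the lowest C/EBPα group (29.1 to 37.0) and 20.3% in the top one (17.0 to 23.8). All intervals are Clopper-Pearson intervals and cover counting error only. In 5 equal groups from few to many Hoxa9 tags, the median of C/EBPα tags was 54, 57, 57, 68 and 95. It was thus nearly flat over the lower groups and higher in the upper 2. In 5 groups from few to many C/EBPα tags, the median of Hoxa9 tags was 33, 38, 38, 42 and 51.

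The rank correlation was higher where the summits were closer. It was 0.262 over 330 sites with summits 0 to 10 bp apart, 0.240 at 11 to 25 bp, 0.221 at 26 to 50 bp, 0.104 at 51 to 75 bp and 0.129 at 76 to 100 bp. Without pile-up sites the first 2 values were 0.241 and 0.230. The difference between close and distant summits was not tested.

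The lists of sites leading for each factor overlapped only through pile-up sites. Of the 10 sites with most Hoxa9 tags and the 10 with most C/EBPα tags, 4 were in both lists, and all 4 were pile-up sites. With pile-up sites left out, a choice made after their values were seen, the 2 lists of 10 shared 0 sites. Lists of 10 among 2260 sites would seldom share any even with unrelated counts, so this does not show a separation. The most Hoxa9 tags outside pile-ups, 422, were on chromosome 10 from 17894647 to 17897364, with 75 C/EBPα tags. The C/EBPα peak there had a fold enrichment of 7.41, below the sites' median of 12.35. The peak on chromosome 9 from 124013283 to 124014734 had 375 Hoxa9 and 187 C/EBPα tags. The peak on chromosome 10 from 20802609 to 20804263 had 367 and 176. At these 3 sites C/EBPα was above its median of 66 tags but well below its highest counts. The peak on chromosome 19 from 15910831 to 15913115 had 365 Hoxa9 and 86 C/EBPα tags. Chromosome 16 from 45025110 to 45026609 had 335 and 124.

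The 10 sites leading for C/EBPα outside pile-ups ranged widely for Hoxa9, with 17 to 246 tags. The most C/EBPα tags outside pile-ups, 530, were on chromosome 2 from 152567192 to 152567852, where Hoxa9 had 39 tags, its median. Next came chromosome 6 from 115469198 to 115470006, with 493 C/EBPα and 47 Hoxa9 tags and summits 1 bp apart. Chromosome 16 from 93208027 to 93208435 had 433 C/EBPα and 19 Hoxa9 tags. Hoxa9 was near its calling limit at that last site. Higher Hoxa9 counts were seen at chromosome 11 from 86416748 to 86418178 (372 C/EBPα and 246 Hoxa9 tags), chromosome 5 from 108177993 to 108179323 (383 and 113), chromosome 9 from 108827527 to 108828819 (409 and 126) and chromosome 4 from 58343553 to 58344600 (400 and 109). The chromosome 4 peak had the highest C/EBPα fold enrichment of the 2265 sites, 98.44, and a Hoxa9 fold enrichment of 19.3.

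The ratio of C/EBPα to Hoxa9 tags ordered the sites from one factor to the other. As the library depths are unknown the ratio has no absolute meaning and serves only to rank sites. Its median was 1.51, with a middle range of 0.840 to 2.85. The highest ratios, 22.8 and 22.4, belonged to the chromosome 16 peak with 433 C/EBPα tags and to chromosome 17 from 71649736 to 71650088, which had 380 C/EBPα and 17 Hoxa9 tags. The 5 highest ran from 15.4 to 22.8 and all had 17 or 19 Hoxa9 tags, where 17 were the fewest in any called peak. The lowest ratio, 0.0804, was at chromosome 6 from 92050830 to 92053091, with 18 C/EBPα and 224 Hoxa9 tags. Chromosome 18 from 70712017 to 70713539 followed with 0.108, from 19 C/EBPα and 176 Hoxa9 tags, and the 5 lowest ran to 0.132. These 5 had 16 to 31 C/EBPα tags, where 15 were the fewest in any called peak. The calling limits thus bounded the ratio at both ends. All 10 sites with these highest or lowest ratios had H3K4me1 at the Hoxa9 summit or on both sides of it. That held for most sites, with 75.5% of all summits inside a region and 14.5% in a gap between regions. Over all Hoxa9 peaks the shares were 68.6% and 10.2%. In 5 equal groups from the lowest to the highest ratio, H3K4me1 overlapped 94.7%, 92.9%, 93.8%, 93.8% and 93.6% of sites, so its presence varied little with which factor had more tags.

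The spacing between the summits formed a single broad mound with no gap or second peak. The window of 100 bp set its outer edge, and within it the median distance was 40 bp, with 19 to 66 bp for the middle 50%. Both summits fell on the same base at 19 sites, and 14.6% of sites had them within 10 bp. Counted per base over both sides there were 15.7 sites at 0 to 10 bp, 12.6 at 31 to 40 bp and 6.50 at 91 to 100 bp. Just outside the window, Hoxa9 peaks free of H3K27me3 stood at 5.6 per base at 101 to 110 bp. The fall was gradual across the threshold, which therefore divided a continuous range. The 130 sites just inside, at 91 to 100 bp, had medians of 38.5 Hoxa9 and 53 C/EBPα tags, and the 112 peaks just outside had 38 and 66.

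**Figure D2:**
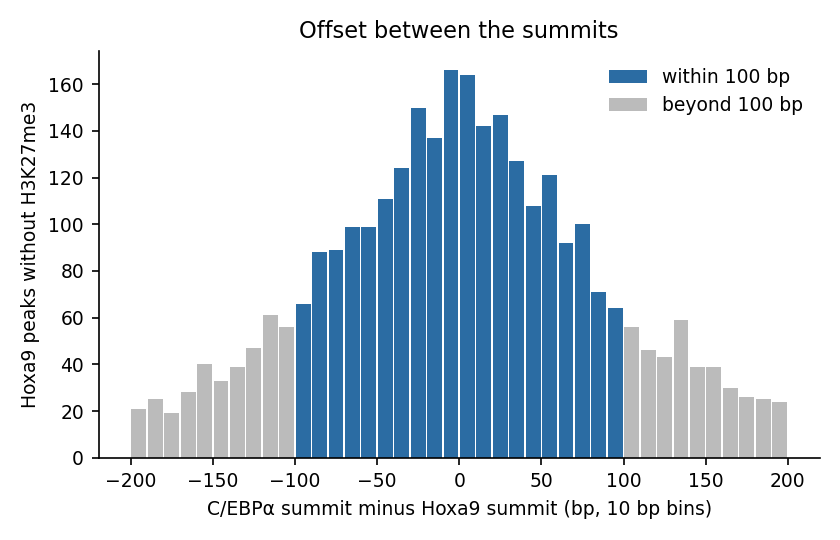
Number of Hoxa9 peaks without H3K27me3 (vertical) by the signed offset of the nearest C/EBPα summit (horizontal, 10 bp bins), with sites in blue and peaks beyond 100 bp in grey. Counts fall away evenly to both sides, and 49.7% of the sites with unequal summits have C/EBPα at the higher coordinate.

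The 2 directions were nearly equally common, and distance showed almost no rank relation with tags. C/EBPα lay at the higher coordinate at 1117 of the 2246 sites with unequal summits, a share of 49.7% (47.6 to 51.8). The sign of an offset refers to the chromosome's coordinates, so it says nothing of the order of the factors along a DNA motif. The rank correlation between distance and tags was 0.00445 for Hoxa9 and -0.0170 for C/EBPα. In 5 equal groups by Hoxa9 tags the median distance stayed between 35 and 42 bp, and by C/EBPα tags between 37 and 41 bp. Both summits stood near the middle of their own peaks, at a median of 0.508 of the width for Hoxa9 and 0.506 for C/EBPα.

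Nearly all sites lay in chromatin with H3K4me1. A region of the mark overlapped 2124 of 2265 sites, or 93.8% (92.7 to 94.7), and 82.4% of all Hoxa9 peaks. The share was 93.0% (91.6 to 94.3) in summit-apart peaks and 68.2% (66.4 to 69.9) in Hoxa9-only peaks. The sites thus differed little in this from other Hoxa9 peaks that touched C/EBPα. The rule did not use this mark. Median Hoxa9 tags were 39 at the sites and 24 in Hoxa9-only peaks, and the part of this in the difference in H3K4me1 was not tested. The 1709 sites whose Hoxa9 summit lay inside a region fell in 1689 different regions, whose median width was 2536 bp and whose fold enrichment had a median of 7.54. Over all 100189 regions the medians were 768 bp and 4.84, and wide regions are met more readily by any peak. Regions around summit-apart peaks had medians of 2627 bp and 7.75.

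H3K4me1 stood beside the coincident summits more often than on them. A region covered 75.5% of Hoxa9 summits at the sites, 83.3% of the points 400 bp to the lower side and 84.3% of those to the higher side. The difference between summit and flanks was -8.34 percentage points. It was -3.96 in summit-apart peaks, where 78.1% of summits were covered, and 1.04 in Hoxa9-only peaks, where 58.4% were. Median Hoxa9 tags were 39 at the sites and in summit-apart peaks but 24 in Hoxa9-only peaks. The part of this inequality in the contrast was not tested. Farther out the mark thinned again at the sites, to 68.5% at 1000 bp and 32.1% at 3000 bp, so the dip was a narrow one within a mound some kilobases wide. The nearest summit of an H3K4me1 region lay at a median of 575 bp at the sites, 618.5 bp in summit-apart peaks and 674 bp in Hoxa9-only peaks. The last median includes the 23.5% of Hoxa9-only peaks with no region within 3000 bp. Regions covering the sites' summits had a median width of 2536 bp, so offsets of this size do not by themselves show a dip.

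**Figure D3:**
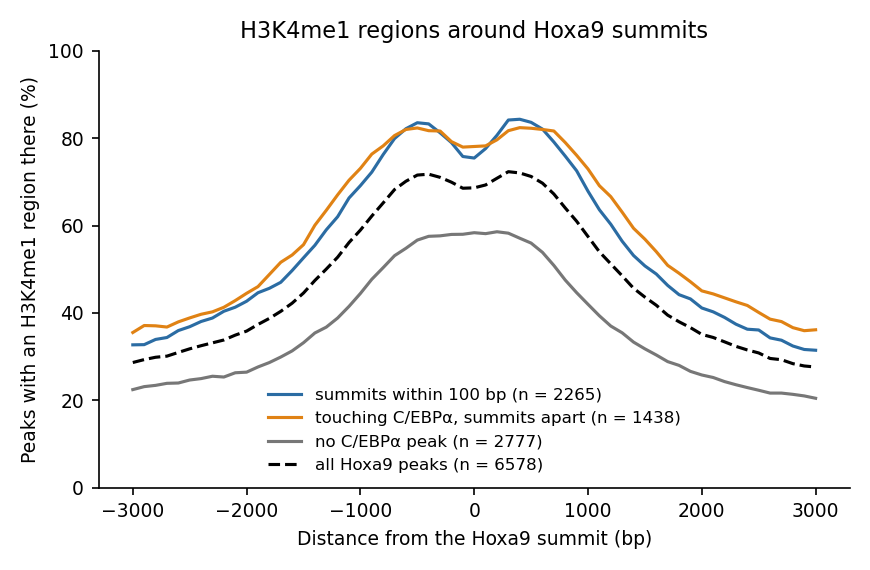
Percent of Hoxa9 peaks with an H3K4me1 region (vertical) at each distance from the Hoxa9 summit (horizontal, 100 bp steps), for the sites, summit-apart peaks, Hoxa9-only peaks and all Hoxa9 peaks. The sites dip to 75.5% at the summit between shoulders near 84%, and the Hoxa9-only peaks show no dip.

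Coverage was nearly flat between the 2 summits. With the 2246 sites of unequal summits turned so that C/EBPα lay to the right, the lowest coverage within 300 bp of the Hoxa9 summit was 74.9%, at 25 bp on the side of C/EBPα, against 75.3% at the summit itself. Within 300 bp of the C/EBPα summit it was 75.2%, at 25 bp towards Hoxa9, against 75.5% at that summit. Centred on C/EBPα over all sites, the difference between summit and flanks was -8.06 points. For summit-apart peaks the difference depended on the centre, with -5.29 points at the C/EBPα summit and -6.57 at the midpoint between the summits. Around the 23635 other C/EBPα peaks without H3K27me3 the summit was covered more often than the flanks, by 3.795 points. The 24181 C/EBPα peaks that held no site had a median of 33 tags, against 66 at the sites. The part of this inequality in the contrast was not tested.

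Where the mark was broken at the summit, it was usually present on both sides. The summit lay in a gap, with a region beginning within 1000 bp on each side, at 329 sites, or 14.5% (13.1 to 16.0), while 10.2% of all Hoxa9 summits lay in such gaps. The shares were 12.0% (10.4 to 13.8) in summit-apart peaks and 5.91% (5.06 to 6.85) in Hoxa9-only peaks. A region stood within 1000 bp on 1 side alone at 145 sites, or 6.40%, near the 6.26% of summit-apart peaks and the 7.34% of all Hoxa9 peaks. At 64 sites, or 2.83% (2.18 to 3.59), no region was called within 3000 bp. That share was 3.27% (2.41 to 4.32) in summit-apart peaks, 23.5% (21.9 to 25.1) in Hoxa9-only peaks and 11.9% over all Hoxa9 peaks. The gaps were short, with a median of 395 bp and 210 of 329 at 500 bp or less. The Hoxa9 summit lay a median of 70 bp from the middle of the gap and the C/EBPα summit 82 bp, and at 40 of these sites the C/EBPα summit itself was covered.

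Sites with many tags of both factors had the deepest dip. In 3 equal groups of 755 sites from few to many Hoxa9 tags, the difference between summit and flanks was -4.30, -8.61 and -12.1 points. By C/EBPα tags it was -3.44, -9.27 and -12.3 points. At 324 sites in the top group for both factors it was -15.0 points, with 70.99% at the summit and 85.96% beside it. At 304 sites in the lowest group for both it was 1.48 points, with 75.7% at the summit and 74.2% beside it. With one factor in its top group and the other in its lowest, the value was -10.7 for C/EBPα high (214 sites) and -9.57 for Hoxa9 high (188 sites). A dip was thus seen where either factor had many tags.

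**Figure D4:**
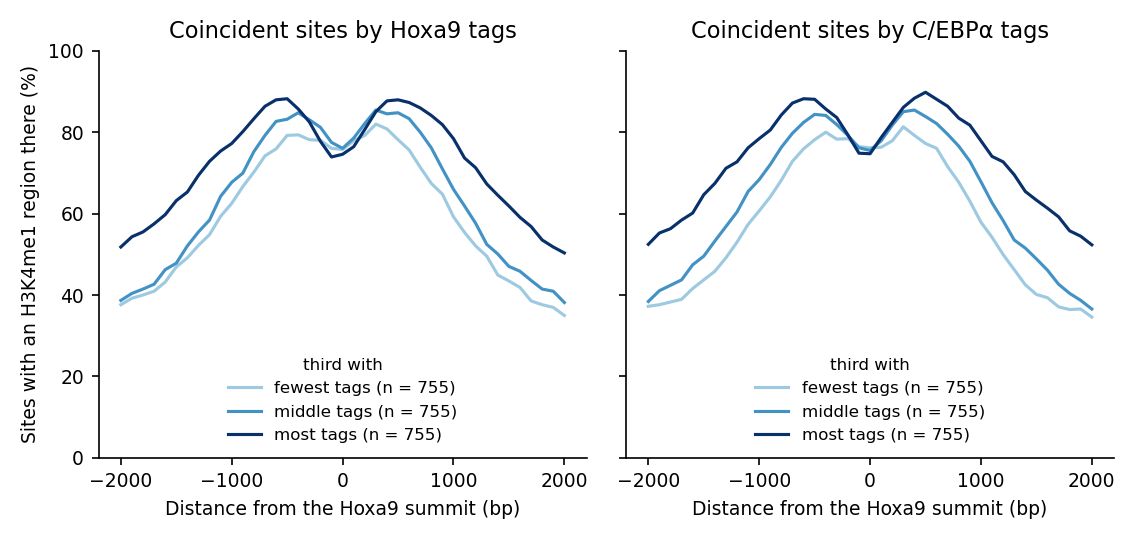
Percent of sites with an H3K4me1 region (vertical) by distance from the Hoxa9 summit (horizontal, 100 bp steps), with the sites in 3 groups of 755 by Hoxa9 tags (left) and by C/EBPα tags (right). At the summit the lines lie between 74.6% and 76.2%, and at 1000 bp the groups with more tags lie higher.

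Among the 3 groups by Hoxa9 tags, coverage differed more beside the summit than at it. Coverage at the summit was 75.8%, 76.03% and 74.6% from few to many Hoxa9 tags, while the flanks at 400 bp stood at 80.1%, 84.6% and 86.7% and the points at 1000 bp at 60.9%, 66.8% and 77.8%. Sites with more tags thus had more called H3K4me1 out to 1000 bp. Sites with both flank points covered were also taken alone, a measure added after the profiles were seen. Of 248 such sites in the top group for both factors, 49 had an uncovered summit, or 19.8% (15.0 to 25.3). Of 193 in the lowest group for both, 13 did, or 6.74% (3.63 to 11.2). With Hoxa9 in its top group and C/EBPα in its lowest the share was 11.6% (6.88 to 17.9). With C/EBPα in its top group and Hoxa9 in its lowest it was 14.5% (9.49 to 20.7). Both of these intervals overlapped those of the groups just given. Over all sites with both flanks covered the share was 13.6% (12.0 to 15.4), against 10.7% (8.87 to 12.7) in summit-apart peaks and 8.30% (6.87 to 9.92) in Hoxa9-only peaks. With summit-apart peaks centred on the midpoint between their summits the share was 13.1% (11.1 to 15.2), close to that of the sites.

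The share of sites in gaps followed both factors. From the fewest to the most Hoxa9 tags in 5 equal groups of 453, it was 9.93%, 12.6%, 13.9%, 15.9% and 20.3%. By C/EBPα tags it was 11.5%, 11.3%, 13.5%, 14.3% and 22.1%. Sites with no H3K4me1 within 3000 bp went the other way, with 28 in the group with fewest Hoxa9 tags and 3 in the group with most. Sites inside a region had a median of 39 Hoxa9 and 66 C/EBPα tags, those in gaps 45 and 82, and those without the mark 24.5 and 34.

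**Figure D5:**
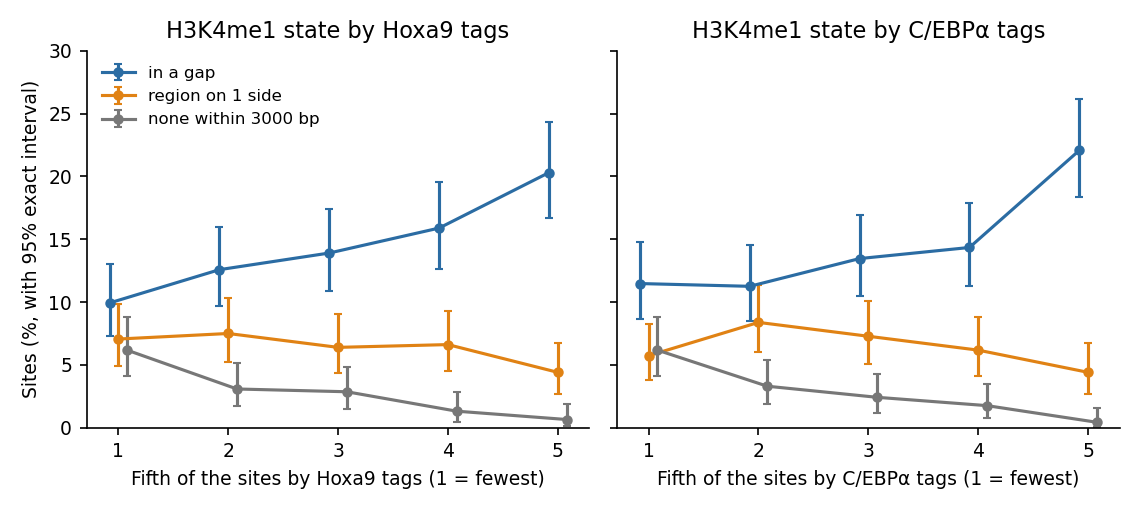
Percent of sites in a gap between 2 H3K4me1 regions, with a region on 1 side, or with none within 3000 bp (vertical, points with 95% exact intervals), in 5 groups of 453 sites by Hoxa9 tags (left) or C/EBPα tags (right). Gaps reach 20.3% and 22.1% in the groups with most tags, where sites without the mark are at 0.662% and 0.442%.

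Among sites in gaps, the most Hoxa9 tags were at the chromosome 10 peak named above with 422, where the gap was 282 bp long. At chromosome 18 from 75062234 to 75064197 both factors were high, with 333 Hoxa9 and 367 C/EBPα tags in a gap of 567 bp. At chromosome 8 from 82786852 to 82788312 they had 285 and 207 tags in a gap of 1045 bp. A much lower C/EBPα count was found at chromosome 6 from 11543399 to 11544742, with 257 Hoxa9 and 37 C/EBPα tags in a gap of 1095 bp. Sites without H3K4me1 had lower median tags, as given above. Single sites among them were above the median of all sites for Hoxa9 alone or for both factors. The strongest for Hoxa9, on chromosome 3 from 5349278 to 5350143, had 99 Hoxa9 and 41 C/EBPα tags and lay 54411 bp from the nearest region. The site on chromosome 14 from 110963626 to 110964649 had 77 Hoxa9 and 155 C/EBPα tags, the most C/EBPα tags of the 64, and lay 162728 bp away.

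The amount of H3K4me1 around a site was loosely related to both factors. Tags of the mark within 1000 bp of the summit, taken from the called regions in proportion to the length inside, had a rank correlation of 0.143 with Hoxa9 tags and 0.189 with C/EBPα tags over 2265 sites. The median was 87.8 tags in the group of 453 sites with fewest Hoxa9 tags and 103.8 in the group with most. With the H3K4me1 tags held fixed, the rank correlation between Hoxa9 and C/EBPα tags was 0.165, against 0.188 without. Summit-apart peaks had rank correlations of 0.162 and 0.214 between the mark and the 2 factors.

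Along chromosomes most sites had no other site within 10 kb. The median distance from a site to the next was 126737 bp, and 229 sites, or 10.1% (8.90 to 11.4), had another site within 10 kb. Another Hoxa9 summit of any class lay within 10 kb of 596 sites, or 26.3% (24.5 to 28.2), and of 23.9% of all Hoxa9 peaks. Where a site had such a neighbour, the nearest one was itself a site in 211 of 596 cases, or 35.4% (31.6 to 39.4). For other Hoxa9 peaks the nearest neighbour was a site in 376 of 973 cases, or 38.6% (35.6 to 41.8). Sites made up 34.4% of the whole list, inside the first of these intervals and below the second. A second C/EBPα summit lay within 10 kb of 57.0% of sites (55.0 to 59.1) and 58.2% of summit-apart peaks (55.6 to 60.8). The same count gave 45.3% (43.5 to 47.2) in Hoxa9-only peaks, which touch no C/EBPα peak.

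With neighbouring summits allowed up to 10 kb apart, 2036 sites stood alone, 101 stretches held 2 sites and 9 held 3, the most in any. In genome order the first 4 of these 9 began with chromosome 4 from 132148532 to 132167111, where the sites had 105, 53 and 28 Hoxa9 tags and 122, 47 and 73 C/EBPα tags. On chromosome 6 from 119340648 to 119349803 they had 62, 23 and 33 Hoxa9 tags and 18, 32 and 188 C/EBPα tags. The site with most C/EBPα tags was thus not the one with most Hoxa9 tags in that stretch. On chromosome 11 from 11726483 to 11737346 the counts were 19, 54 and 40 for Hoxa9 and 29, 165 and 19 for C/EBPα, and 2 of the sites lay in H3K4me1 gaps. On chromosome 12 from 80088364 to 80104073 they were 55, 17 and 51 for Hoxa9 and 47, 19 and 148 for C/EBPα.

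H3K27me3 was absent from the sites by the rule. The median distance from a site to the nearest H3K27me3 region was 84185 bp, 54 sites (2.38%) had one within 1000 bp and 255 (11.3%, 9.99 to 12.6) within 10 kb. The median was 86003 bp in summit-apart peaks and 78260 bp in Hoxa9-only peaks, with 10.8% (9.29 to 12.6) and 13.1% (11.8 to 14.4) within 10 kb, so the sites differed little from these classes. The 29 peaks left out for touching H3K27me3 had a median of 44 Hoxa9 tags and 35 C/EBPα tags, against 39 and 66 at the sites. Their Hoxa9 counts thus resembled those of the sites, while their C/EBPα counts had a lower median. H3K4me1 overlapped 28 of the 29, or 96.6% (82.2 to 99.9), against 93.8% of sites and 82.4% of all Hoxa9 peaks.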

How the data were processed

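Peak lists of 4 ChIP-seq libraries were used, each called by the authors in 1 library. The submitters' processing notes name the tools MACS 1.4, BWA 0.6.2 and CASAVA 1.8.2, and build mm9. Neither the caller's settings nor its control was stated. The deposited tags, per the file headers, are whole counts per peak, not scaled, the score is −log10 of a p-value multiplied by 10, fold enrichment is a linear ratio and the false discovery rate is in percent. Library totals are unknown. Weak sites below the calling limit are absent from the lists.

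A summit was start + summit − 1, and positions are 1-based. Members and classes were chosen with earlier results of these data known. Overlap meant 1 bp or more. Shares carry exact Clopper-Pearson intervals at 95%. Equal groups were cut by rank, ties by position. The rule for named sites took the 10 with most tags of each factor, the 5 highest and 5 lowest ratios among sites with 50 or more tags in all, the 5 sites with most Hoxa9 tags in gaps and without H3K4me1, and the 4 stretches with most sites. Motifs and nearby genes had been planned and were not run, since the annotation at hand was of GRCm38. Scripts used Python 3.11.15, NumPy 2.4.6, pandas 2.3.3 and SciPy 1.17.1, and were tested on simulated lists. Alternatives changed the window, the peaks kept, the H3K4me1 list, the flanks and the measure of strength.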

Additional observations from a re-analysis of the deposited data

How the results depend on the processing

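No paired analysis was possible because each antibody had 1 library, and for the same reason no replicate could be left out. Of 55 alternatives to 6 results, 31 stayed within a band around the reported value, 23 moved beyond it and 1 reversed. The band was a 95% interval that treats sites as independent, or for the number of sites within 1.5 times it. For the difference in H3K4me1 coverage, the band had the width of the 95% interval for coverage at the summit alone. It left out the error of the flanks. The difference in H3K4me1 coverage between summit and flanks became 6.95 points with flanks at 1000 bp, since the mound of the mark falls off by then. It was -4.37 with flanks at 200 bp and -5.85 with H3K4me1 regions scoring above their median. With summits within 50 bp there were 1376 sites, the rank correlation was 0.237 and 5.96% had another site within 10 kb, which was 13.8% with summits within 200 bp. With factor peaks scoring above their list's median there were 1130 sites, the rank correlation was 0.232, H3K4me1 overlapped 95.9%, the difference was -12.1 points and 5.93% had a neighbour. With factor peaks enriched 10-fold or more, the values were 387 sites, 0.228, 97.9%, -14.0 points and 3.10%, and C/EBPα lay at the higher coordinate in 45.7%. The rank correlation was 0.130 for fold enrichment, and 0.107 with widths held fixed and pile-up sites left out, a setting chosen after seeing the data. H3K4me1 overlap was 75.5% with the summit required inside a region and 86.3% with regions scoring above their median. Neighbours were counted for 6.36% of sites within 5 kb and 18.8% within 25 kb. Fewer peaks leave fewer neighbours by construction. The causes of the other changes were not tested. Unknown library depth limits every comparison between factors.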
